A study of Rattus norvegicus with 24 samples.

Results

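Nuclear genes encoding subunits of the mitochondrial respiratory chain were followed in peri-implant bone of rat tibia. The list holds 39 genes, grouped here as 22 of complex I, 4 of complex II, 7 of complex III with cytochrome c, and 6 of complex IV. Ndufa4 was grouped with complex I after its gene name, and its place in a complex was not tested. A gene was represented by the probe set that carries its symbol alone, and by the one with the highest mean over all arrays where a gene has several. By this rule 38 of the 39 genes were measured, out of 18166 named genes and 36495 probe sets tested. Ndufa10 was not measured, since its probe set carries more than 1 symbol. Cox5a had 3 such probe sets, and Ndufb3 and Cycs had 2 each. The samples came from 12 male Sprague Dawley rats, whose age was not given in the sources used here. Each rat carried implants of poly(lactide-co-glycolide acid), PLGA, loaded with lithium carbonate (Li+) and with sodium carbonate in place of lithium (Ctrl). Bone around 1 implant of each kind was sampled from 6 rats at day 7 and from 6 other rats at day 28 after surgery, which gave 24 Affymetrix Rat Gene 2.0 ST arrays, 6 for each implant and day. Values are log2 signals normalized between arrays, so that a difference of 1 is a doubling of the signal. For the genes the authors also measured by quantitative PCR, fold changes on the arrays tended to be smaller. The fold bounds given below are therefore bounds on array signal. The sampled bone holds marrow and other cells beside bone cells, and in such bulk tissue fewer cells of a type and less RNA per cell cannot be told apart.

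The respiratory chain sits in the inner mitochondrial membrane. Complex I (NADH dehydrogenase) and complex II (succinate dehydrogenase, which is also an enzyme of the citric acid cycle) pass electrons to ubiquinone, complex III passes them on to cytochrome c, and complex IV (cytochrome c oxidase) hands them to oxygen. Complexes I, III and IV are built from subunits of both genomes, and complex II from nuclear subunits alone. No mitochondrially encoded gene had a probe set with a single symbol (0 of 13), so only the nuclear share of the chain is described. Skeletal muscle is rich in mitochondria, and several complex IV subunits have a form of their own in heart and skeletal muscle.

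Many respiratory chain promoters in mammals are known targets of nuclear respiratory factor 1 (NRF1) and of the ETS factor GABP. Promoter windows of 300 bases, from 250 before to 50 after the start of the gene, were taken from RefSeq (build GRCr8) and matched 34 of the 39 genes by symbol. The letters TGCGCA, part of the NRF1 site and their own reverse complement, stood in 10 of the 34 windows (29.4%) and in 8.74% of 21842 windows of protein-coding genes. The letters CCGGAAG, the core of the ETS site, searched on both strands, stood in 12 of the 34 windows (35.3%) and in 10.7% of all. Both stood in 2 windows (5.88%, against 1.48% of all) and neither in 14 (41.2%, against 82.0% of all). The median share of G and C was 58.3% in the 34 windows and 55.0% in all, and its part in these counts was not tested. The 34 genes lie on 14 chromosomes. The windows of the 5 genes with the smallest p-values between days 28 and 7, described further on, are shown with matches in capitals. They are 300 bases each, 5' to 3' on the strand of the gene, at chr5:60206103-60206402 on the minus strand for Ndufb6, chr18:28631835-28632134 on the minus strand for Ndufa2, chr4:80984718-80985017 on the minus strand for Cycs, chr5:158547684-158547983 on the plus strand for Sdhb, and chr7:10110449-10110748 on the minus strand for Ndufs7.
Ndufb6: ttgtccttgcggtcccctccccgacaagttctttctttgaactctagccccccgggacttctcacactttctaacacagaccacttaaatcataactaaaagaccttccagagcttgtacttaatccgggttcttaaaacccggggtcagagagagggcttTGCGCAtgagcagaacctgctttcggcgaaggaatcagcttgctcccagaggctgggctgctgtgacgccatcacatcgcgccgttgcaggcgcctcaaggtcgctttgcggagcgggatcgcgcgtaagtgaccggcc
Ndufa2: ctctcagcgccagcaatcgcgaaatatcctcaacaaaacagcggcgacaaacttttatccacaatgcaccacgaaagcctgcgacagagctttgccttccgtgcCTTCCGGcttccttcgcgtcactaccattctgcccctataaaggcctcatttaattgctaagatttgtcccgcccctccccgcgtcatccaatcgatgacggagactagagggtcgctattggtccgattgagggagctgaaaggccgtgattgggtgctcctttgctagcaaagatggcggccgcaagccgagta
Cycs: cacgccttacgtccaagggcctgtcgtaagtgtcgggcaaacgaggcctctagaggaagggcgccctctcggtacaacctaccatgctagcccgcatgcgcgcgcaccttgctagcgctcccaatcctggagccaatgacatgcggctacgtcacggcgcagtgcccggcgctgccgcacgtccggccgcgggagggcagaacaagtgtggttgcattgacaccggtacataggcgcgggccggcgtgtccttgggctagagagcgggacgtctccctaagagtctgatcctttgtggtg
Sdhb: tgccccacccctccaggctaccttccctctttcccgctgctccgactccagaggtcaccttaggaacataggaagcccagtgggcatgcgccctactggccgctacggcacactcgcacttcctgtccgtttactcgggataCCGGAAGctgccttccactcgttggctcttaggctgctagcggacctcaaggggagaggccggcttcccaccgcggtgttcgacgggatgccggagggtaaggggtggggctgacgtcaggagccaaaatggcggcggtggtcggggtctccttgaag
Ndufs7: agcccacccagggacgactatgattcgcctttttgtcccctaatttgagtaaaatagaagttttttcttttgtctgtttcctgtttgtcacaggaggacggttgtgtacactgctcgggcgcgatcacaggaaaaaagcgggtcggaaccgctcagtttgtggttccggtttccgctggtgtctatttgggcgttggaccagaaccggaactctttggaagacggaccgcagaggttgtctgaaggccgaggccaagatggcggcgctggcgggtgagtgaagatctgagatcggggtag
The capitals mark TGCGCA in the Ndufb6 window and CCGGAAG in the Ndufa2 and Sdhb windows, in Ndufa2 as its reverse complement. The Cycs and Ndufs7 windows hold neither string. Among the 4 of these genes with a lower mean at day 28, 1 thus holds TGCGCA, 2 hold CCGGAAG and 1 holds neither, and a string that is missing from a window says nothing of the factor.

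The signal of the genes moved little. Over the 24 arrays the distance from the lowest to the highest array ran from 0.36 for Cox8a to 1.20 for Ndufa2 on the log2 scale. Ndufs6 (7.66), Uqcrb (7.70) and Ndufa2 (7.83) had the lowest mean signals of the list. They lay near the median of all probe sets (7.31) and far below the median of the 38 genes (10.46). The SD within a group of 6 had a median over the 38 genes of 0.06 at Li+ sites and 0.14 at Ctrl sites of day 7, and of 0.11 at Li+ sites and 0.19 at Ctrl sites of day 28. The highest values were concentrated on few arrays. Of the 38 genes, 21 had their highest value of all 24 arrays on the Ctrl array of rat 23 (day 28) and 15 on the Ctrl array of rat 10 (day 7). The remaining maxima were those of Ndufa8 on the Ctrl array of rat 27 and of Ndufs6 on the Li+ array of rat 30.

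A score for each array, the mean of the 38 log2 signals after the mean of each gene over the 24 arrays was subtracted, gave the same picture. At day 7 the Ctrl scores ran from -0.06 over a median of -0.00 to 0.25 on rat 10, with the next highest at 0.02. The Li+ scores of day 7 lay between -0.04 and 0.03. At day 28 the Ctrl scores ran from -0.09 over a median of -0.08 to 0.33 on rat 23, with the next highest at -0.03. The Li+ scores of day 28 lay between -0.11 and 0.13, the latter on rat 27. Thus 1 array stood clear of the others in each Ctrl group.

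Muscle markers were high on some of the same arrays. The score of 19 measured skeletal muscle genes, of 25 listed, was 4.77 on the Ctrl array of rat 23, 4.203 on the Li+ array of rat 27 and 2.68 on the Ctrl array of rat 29, all of day 28, and between -0.78 and 0.30 on the other 21 arrays. The respiratory chain score was high on rats 23 and 27 but was -0.08 on the Ctrl array of rat 29, within the range of the arrays without muscle signal. On the Ctrl array of rat 10 the muscle score was -0.58 while the respiratory chain score was 0.25. Since a few arrays form a group of their own on both scores, no correlation is given. All 11 measured osteoblast markers, of 12 listed, had a mean above the median signal of all probe sets. The same held for all 9 erythroid, 8 osteoclast and 11 B cell and plasma cell markers. It held for 13 of 14 macrophage, 10 of 11 neutrophil granule, 9 of 11 adipocyte and 10 of 19 muscle markers.

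**Figure D1:**
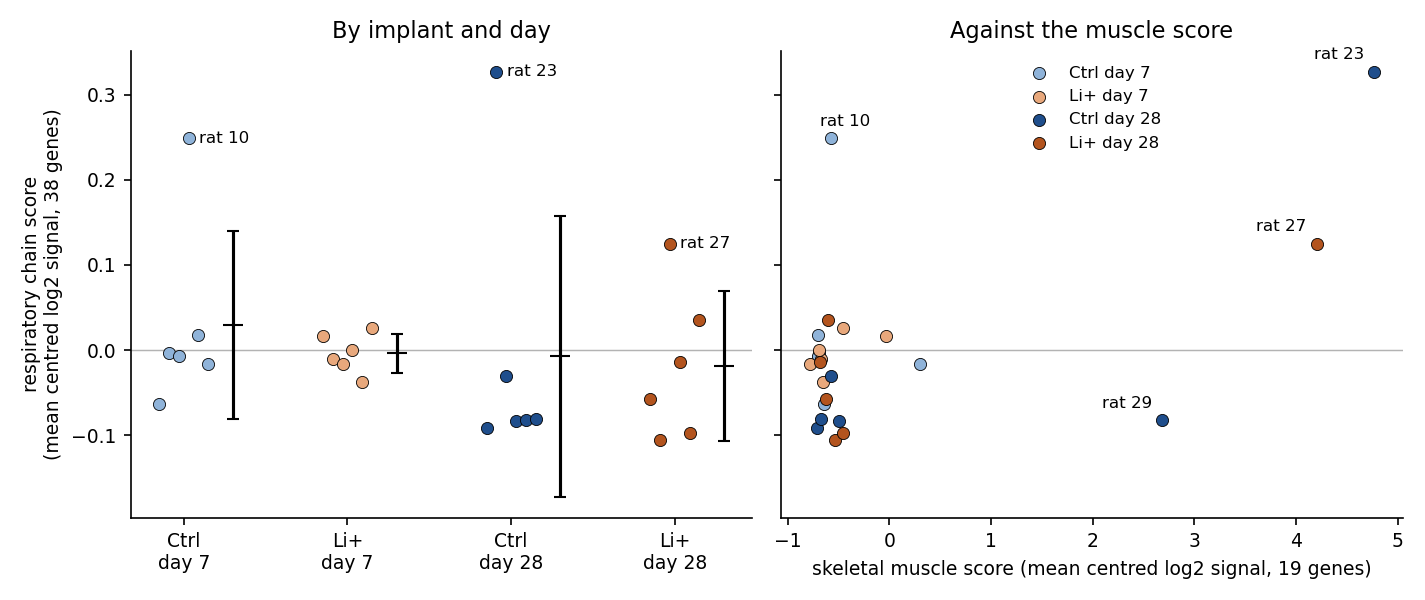
Respiratory chain score of each array (points) by implant and day with the mean and SD of each group of 6 (left), and the same scores against the skeletal muscle score (right), both as mean centred log2 signals. The Ctrl arrays of rats 10 and 23 have the highest chain scores at 0.25 and 0.33, and of these only rat 23 has a high muscle score.

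The complexes differed on these 2 Ctrl arrays. Against the median of the other 5 arrays of its group, the Ctrl array of rat 23 was higher for all 38 genes, with a median difference of 0.45 and the highest value of the group for 32 of them. Each of the 4 complex II genes was the highest of its group there. They were Sdha, the flavoprotein that oxidizes succinate, with 11.24 against 10.55 to 10.74 on the other Ctrl arrays of day 28, the iron-sulfur subunit Sdhb with 10.90 against 10.14 to 10.43, and the membrane anchors Sdhc with 11.71 against 11.00 to 11.19 and Sdhd with 10.45 against 9.93 to 10.11. The median difference was 0.60 for complex II, 0.47 for complex III with cytochrome c, 0.42 for complex I and 0.25 for complex IV. The largest differences were 0.93 for Uqcrq, a small subunit of complex III, and 0.78 for Cyc1, the cytochrome c1 of that complex. The smallest was 0.02 for Cox8a, the ubiquitous form of a complex IV subunit. On the same array, 12 further complex I subunits outside the list had a median difference of 0.32. For 6 further subunits of complexes III and IV it was 0.10, with 2 the highest and 2 the lowest of the group. The Li+ array of rat 27 also had a high muscle score. There the median difference was 0.19, and 28 of the 38 genes were the highest of the group. Complex II did not lead on that array, with 0.18. Complex I had 0.21, complex III with cytochrome c 0.19 and complex IV 0.13.

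The Ctrl array of rat 10 was higher than the median of the other 5 Ctrl arrays of day 7 for 32 of the 38 genes, with a median of 0.29, and was the highest of its group for 31. Complex II differed from the rest there. Its median difference was -0.05, with Sdha at 10.53, below the 10.66 to 10.77 of the other arrays, and only Sdhb highest of its group. The medians of the other complexes were 0.29 for complex I, 0.35 for complex III with cytochrome c and 0.34 for complex IV. The largest differences were 0.71 for Ndufb8, an accessory subunit of complex I, and 0.71 for Uqcrc1, a core protein of complex III. Uqcrc2, the partner of Uqcrc1 in the core of complex III, went the other way with 10.83 against 11.14 to 11.21, a deviation of -0.32. Ndufs1, the largest iron-sulfur subunit of complex I, was also lower, with -0.19. Of the 38 genes, 25 were the highest of their group on both arrays, 6 on that of rat 10 alone and 7 on that of rat 23 alone, the latter including Sdha, Sdhc, Sdhd, Uqcrc2 and Ndufs1.

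**Figure D2:**
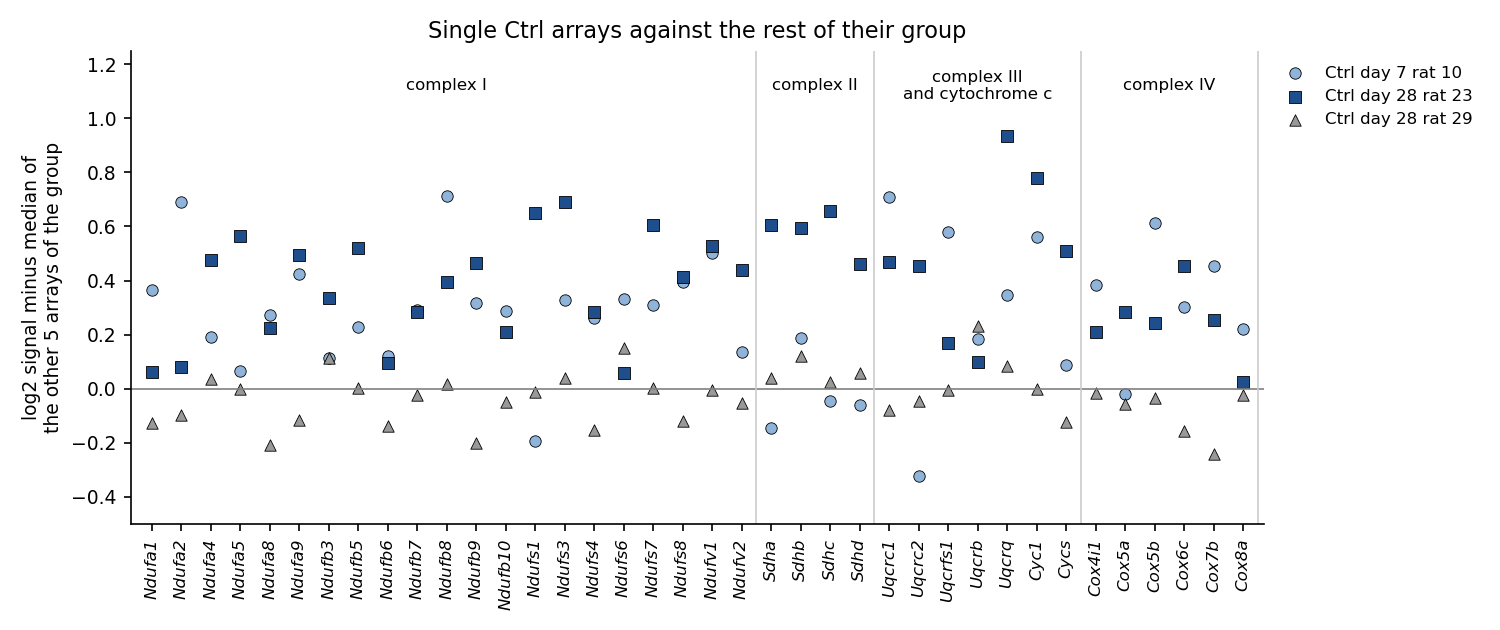
Log2 signal of each of the 38 genes on the Ctrl arrays of rat 10 (day 7), rat 23 (day 28) and rat 29 (day 28), minus the median of the other 5 Ctrl arrays of the same day. Complex II is high on the array of rat 23 (median 0.60) and not on that of rat 10 (median -0.05), and the values on the array of rat 29 lie between -0.24 and 0.23.

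Other gene lists marked the same arrays apart. On the Ctrl array of rat 23, 14 measured citric acid cycle enzymes had a median difference of 0.40 and 66 mitochondrial ribosome proteins one of 0.05. On the Ctrl array of rat 10 the order was the reverse, with -0.09 for the citric acid cycle enzymes and 0.22 for the mitochondrial ribosome proteins. ATP synthase subunits were high on both arrays, by 0.29 and 0.27. Cytosolic ribosome proteins, a list of 131 genes added after the values were seen, differed by -0.08 on the array of rat 23 and by 0.27 on that of rat 10, and 36 proteasome subunits, also added then, by 0.01 and 0.21. Both arrays stood apart from their groups beyond these lists. That of rat 10 was the highest of the 6 for 28.7% and the lowest for 27.8% of all 36495 probe sets, and that of rat 23 for 15.6% and 29.2%. On the array of rat 10, 9 erythroid markers were 0.84 higher, 11 neutrophil granule markers 0.23 higher, and 11 osteoblast markers differed by -0.36, in the median. On the array of rat 23 the 19 muscle markers were 5.45 higher, while erythroid markers differed by -0.41, with all 9 the lowest of the group, 11 B cell and plasma cell markers by -0.24 and 14 macrophage markers by -0.22. The part of these cell markers, of muscle or of the quality of the RNA in the scores was not tested.

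The tissue forms of complex IV subunits set the arrays with muscle signal apart. Cox8b and Cox6a2 encode the heart and skeletal muscle forms of subunits whose ubiquitous forms are Cox8a and Cox6a1. Cox8b was 11.38 on the Ctrl array of rat 23, 10.29 on the Li+ array of rat 27 and 8.75 on the Ctrl array of rat 29. On the other 21 arrays it lay between 6.58 and 7.01. Cox6a2 was 11.14, 10.34 and 8.75 on these 3 arrays and between 7.00 and 7.53 on the rest. Cox8a stayed between 11.96 and 12.31 on all 24 arrays. Cox6a1 was lowest of its group on the Ctrl array of rat 23, at 11.86, and highest of its group on the Ctrl array of rat 10, at 12.52. The muscle forms of the complex IV subunits were thus high on the 3 arrays with muscle markers and low elsewhere, the array of rat 10 included, where Cox8b was 6.78 and Cox6a2 7.20. The other measured isoforms of restricted expression, Cox6b2, Cox7b2 and Cox8c, spanned 7.34 to 7.85, 4.16 to 4.99 and 5.34 to 6.07 over all 24 arrays. Of the widely expressed counterparts, Cox7b spanned 11.37 to 11.96 and Cox6b1 9.29 to 10.33, both with the highest value on the Ctrl array of rat 10.

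**Figure D3:**
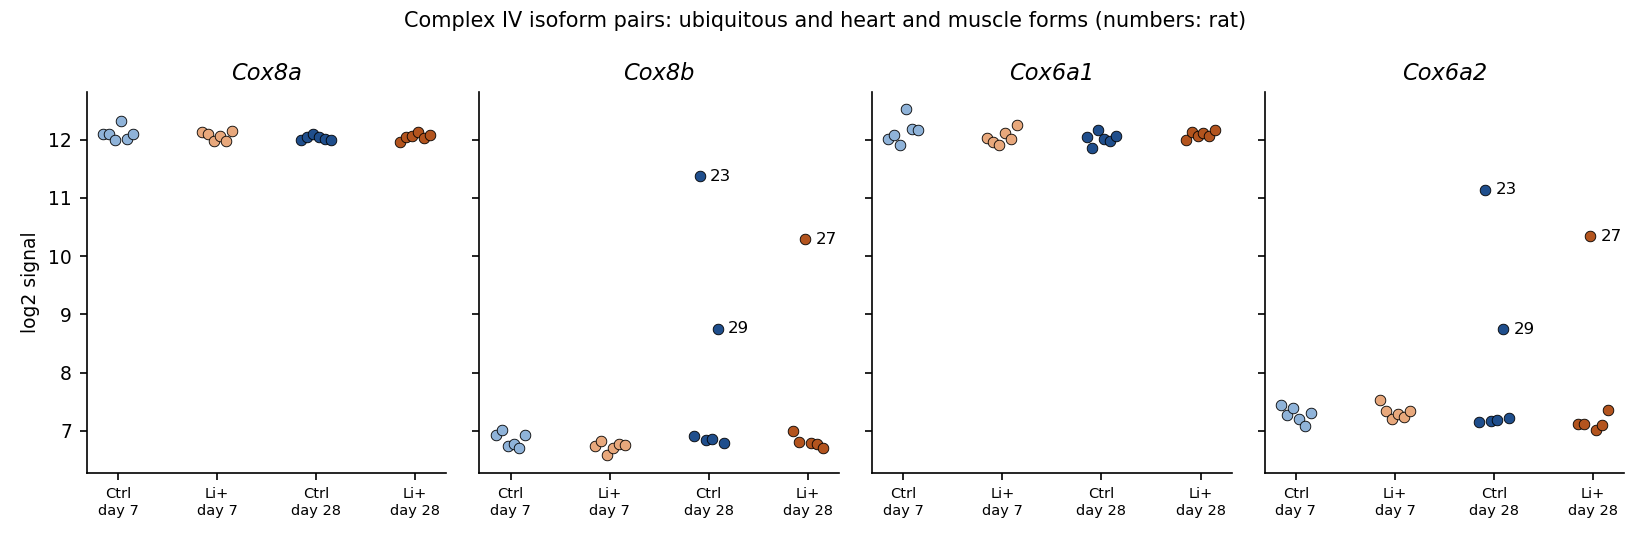
Log2 signal of Cox8a and Cox6a1 (ubiquitous forms) and of Cox8b and Cox6a2 (heart and muscle forms) on each of the 24 arrays by implant and day, with rat numbers beside high values. Cox8b and Cox6a2 exceed 8 on the arrays of rats 23, 27 and 29 at day 28 alone.

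Day 28 was compared with day 7 to ask whether the chain changed with healing. In the means of the 2 sites of each rat (6 rats a day), 27 of the 38 genes had a lower and 11 a higher mean at day 28, with a median of -0.03 on the log2 scale, against 0.02 over all probe sets. No gene passed the adjusted threshold in limma (adjusted p under 0.05, Benjamini-Hochberg over all probe sets), which 0.965% of probe sets did. At an unadjusted p under 0.05, 4 genes were lower, against 7.87% of all probe sets, and 1 was higher, against 9.24%. All 38 genes lay above the median signal of all probe sets. In a fit on the probe sets above that median, 5 genes were lower, against 12.8% of those probe sets. In that fit 1 gene was higher, against 13.1%. All 38 95% intervals lay within a 1.5-fold change in either direction, reaching from -0.40 to 0.33.

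Ndufb6, an accessory subunit of complex I, had the smallest p. Its rat means ran from 12.15 over a median of 12.22 to 12.25 at day 7 and from 11.97 over 12.10 to 12.14 at day 28. The days did not overlap, every rat of day 28 lying below every rat of day 7. The difference was -0.14 (SE 0.04, adjusted p = 0.123 by limma), and an exact two-sided permutation test gave p = 0.00216, the smallest that 6 against 6 rats allow. It lay between -0.15 and -0.12 whichever rat was left out. Since Ndufb6 was picked by its p from the same values, the exact test adds no separate support. Ndufa2, another accessory subunit, ran from 7.80 over 7.95 to 8.09 at day 7 and from 7.54 over 7.72 to 7.93 at day 28, with a difference of -0.21 (SE 0.07, adjusted p = 0.137 by limma). These ranges overlapped in part. Without rats 23, 27 and 29 its difference was -0.10, and that of Ndufb6 was -0.13.

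Cycs, the somatic cytochrome c, ran from 11.06 over 11.10 to 11.17 at day 7 and from 10.81 over 10.98 to 11.07 at day 28, a difference of -0.15 (SE 0.05, adjusted p = 0.155 by limma). The Cycs probe set that was not used had a mean signal of 10.02 and correlated with the used one at r = 0.690 over the arrays. Its difference between days is not given here. Sdhb ran from 10.49 over 10.51 to 10.61 and from 10.29 over 10.35 to 10.57, a difference of -0.15 (SE 0.05, adjusted p = 0.168 by limma). The one gene that was higher at an unadjusted p was Ndufs7, a core subunit of complex I that carries an iron-sulfur cluster. It ran from 11.06 over 11.09 to 11.27 at day 7 and from 11.11 over 11.22 to 11.56 at day 28, with a difference of 0.17 (SE 0.07, adjusted p = 0.264 by limma). With each array centred on its median signal it missed the unadjusted threshold, and 5 genes were lower (against 9.09% of all probe sets) and 0 higher (against 7.52%). With rats 10 and 23 left out, which was decided after the values were seen, 8 genes were lower (against 9.36% of all probe sets) and 2 higher (against 13.0%) at an unadjusted p, with a smallest adjusted p of 0.0577. Without rats 23, 27 and 29, 30 genes were lower with a median of -0.06, of which 5 at an unadjusted p (against 4.91%), and none was higher at that level, Ndufs7 included. By complex, 14 of 21 genes of complex I, 3 of 4 of complex II, 6 of 7 of complex III with cytochrome c and 4 of 6 of complex IV had a lower mean at day 28.

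**Figure D4:**
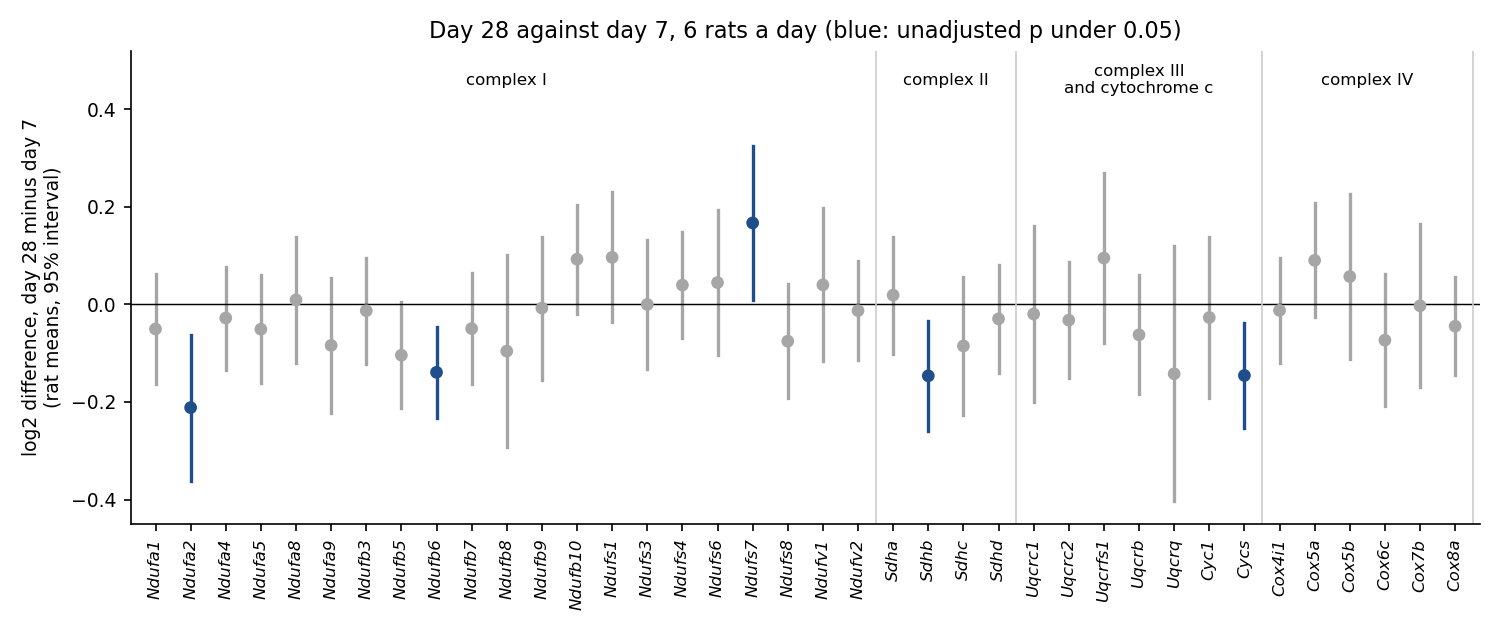
Difference of day 28 minus day 7 in log2 signal for each of the 38 genes, from the means of the 2 sites of 6 rats a day, with 95% intervals from limma. Of the 5 genes at an unadjusted p under 0.05 (blue), Ndufa2, Ndufb6, Sdhb and Cycs lie below 0 and Ndufs7 above it.

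At Ctrl sites alone the median difference between days was -0.03, with 25 genes lower and 13 higher, against a median of 0.02 over all probe sets. No gene passed the adjusted threshold, which 0.0959% of probe sets did. At an unadjusted p, 2 genes were lower, against 5.85% of all probe sets, and 0 were higher, against 5.51%. They were Ndufa2 with -0.36 (SE 0.13, adjusted p = 0.307) and Ndufb6 with -0.16 (SE 0.06, adjusted p = 0.326), both by limma. In the fit on probe sets above the median signal, 2 genes were lower, against 9.40% of those probe sets, and 0 higher, against 7.355%. Ndufa2 ran from 7.80 over 7.99 to 8.60 on the Ctrl arrays of day 7, the highest on rat 10, and from 7.43 over 7.74 to 7.84 on those of day 28. Only the top of the later range touched the earlier one. Uqcrb and Ndufa1, next in order of p, differed by -0.15 (SE 0.10) and -0.10 (SE 0.08). The intervals of 37 of the 38 genes lay within a 1.5-fold change in either direction, all but that of Ndufa2, which reached -0.64.

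The Ctrl result turned on single arrays. Without rat 23, 34 of the 38 genes were lower, the median was -0.09 and 9 were lower at an unadjusted p, against 6.32% of all probe sets. These were Ndufa2, Ndufa4, Ndufa5, Ndufb5, Ndufb6, Sdhb, Sdhc, Uqcrq and Cycs, and the smallest adjusted p among them was 0.1502. Without rat 10 the median was 0.01. Without the Ctrl arrays of both rats, a setting chosen after the values were seen, 27 were lower with a median of -0.06, 9 were lower at an unadjusted p (against 8.06%) and 1, the Rieske protein gene Uqcrfs1, was higher (against 10.4%).

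At Li+ sites the median was -0.02, with 25 genes lower and 13 higher, against 0.02 over all probe sets. None passed the adjusted threshold, which 0.279% of probe sets did. At an unadjusted p, 3 genes were lower, against 7.38% of all probe sets, and 2 were higher, against 8.72%. Ndufs7 ran from 11.00 over 11.05 to 11.13 on the Li+ arrays of day 7 and from 11.15 over 11.23 to 11.47 on those of day 28. Its groups did not overlap, and the difference was 0.20 (SE 0.06, adjusted p = 0.132 by limma). Ndufb10, an accessory subunit of complex I, ran from 9.09 over 9.20 to 9.44 and from 9.26 over 9.39 to 9.49, with a difference of 0.16 (SE 0.06, adjusted p = 0.220 by limma). The genes lower at an unadjusted p were Cycs with -0.18 (SE 0.07), Sdhb with -0.16 (SE 0.06) and Ndufb6 with -0.12 (SE 0.05). Without the Li+ array of rat 27, the one with a high muscle score, 28 genes were lower with a median of -0.05, of which 7 at an unadjusted p (against 6.19% of all probe sets), and 2 were higher at that level (against 7.32%). Without rats 23, 27 and 29, 0 were lower (against 4.16%) and 2 higher (against 4.73%).

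The sites with Li+ and Ctrl implants in the same animals were compared to ask whether lithium release altered the chain. At day 7 the median over the 38 genes was -0.03, against 0.00 over all probe sets, with 27 genes lower and 11 higher at Li+ sites. No gene reached an unadjusted p under 0.05, which 3.63% of all probe sets did, and none passed the adjusted threshold, which 0.00274% of probe sets did (1 probe set). The 95% intervals of 37 genes lay within a 1.5-fold change in either direction, the exception being Ndufa2, whose interval reached -0.61.

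The 4 genes with the smallest p at day 7 were all lower at Li+ sites. For Ndufb10 the Li+ minus Ctrl differences within rats ran from -0.39 to 0.07, with a lower value in 4 of 6 rats, and the mean was -0.14 (SE 0.07, adjusted p = 0.985 by limma). For Ndufs7 they ran from -0.36 to 0.05, lower in 5 of 6 rats, with a mean of -0.11 (SE 0.07). An exact two-sided sign-flip test gave p = 0.0938 for Ndufs7, where 6 rats allow no p below 0.0312. For Ndufa2 they ran from -1.01 to 0.31 with a mean of -0.25 (SE 0.16), and for Uqcrq from -0.32 to 0.08 with a mean of -0.09 (SE 0.07). The lowest difference of each of these 4 genes was that of rat 10.

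Rat by rat, the median of the 38 differences at day 7 was -0.25 in rat 10, with 34 genes lower at the Li+ site, and between -0.05 and 0.09 in the other 5 rats. Rat 4 had 29 genes higher at the Li+ site, rats 15, 5 and 7 had 26, 20 and 19, and rat 11 had 8. Without rat 10, 23 genes were higher at Li+ sites and the median was 0.02. The direction of the list at day 7 thus turned when 1 rat was left out.

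At day 28 the median was -0.01, against 0.00 over all probe sets, with 24 genes lower and 14 higher at Li+ sites. With each array centred on its median signal, 21 were higher and the median was 0.00. Again no gene reached an unadjusted p under 0.05, which 4.32% of all probe sets did, and none the adjusted threshold, which 0.0% of probe sets did. All 38 intervals lay within a 1.5-fold change, from -0.42 to 0.29. The smallest p belonged to Ndufs6, an accessory subunit of complex I, which was higher at the Li+ site in 5 of 6 rats with a mean of 0.09 (SE 0.07, adjusted p = 0.999 by limma). Ndufs6 also had the lowest mean signal of the 38 genes. The differences within rats ran from -0.12 in rat 23 to 0.43 in rat 30. Uqcrfs1 differed by -0.13 (SE 0.12), Cyc1 by -0.10 (SE 0.14) and Ndufv1, the flavoprotein that accepts electrons from NADH, by -0.06 (SE 0.09). Their lowest values, of -0.76, -0.90 and -0.53, were all those of rat 23.

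In rat 23, whose Ctrl site had the muscle score of 4.77, 37 of the 38 genes were lower at the Li+ site, with a median of -0.44. In rat 27, whose Li+ site had the score of 4.203, 33 were higher at the Li+ site, with a median of 0.17. In rat 29, with a score of 2.68 at the Ctrl site, 19 were higher and 19 lower, with a median of -0.00. In the 3 rats without a high score at either site, 25, 30 and 36 genes were higher at the Li+ site, with medians of 0.03 in rat 21, 0.05 in rat 28 and 0.10 in rat 30. Without rat 23, 37 of the 38 genes were higher at Li+ sites with a median of 0.07, against -0.00 over all probe sets. At an unadjusted p, 2 were higher, against 1.98% of all probe sets, namely Ndufa5 and Ndufb5, and the smallest adjusted p was 0.956. Without rats 23, 27 and 29, 36 genes were higher with a median of 0.07, and 1, Uqcrb, was higher at an unadjusted p, against 2.19% of all probe sets. The direction of the list at day 28 therefore turned with the rats included, and in neither setting did a gene pass the adjusted threshold.

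**Figure D5:**
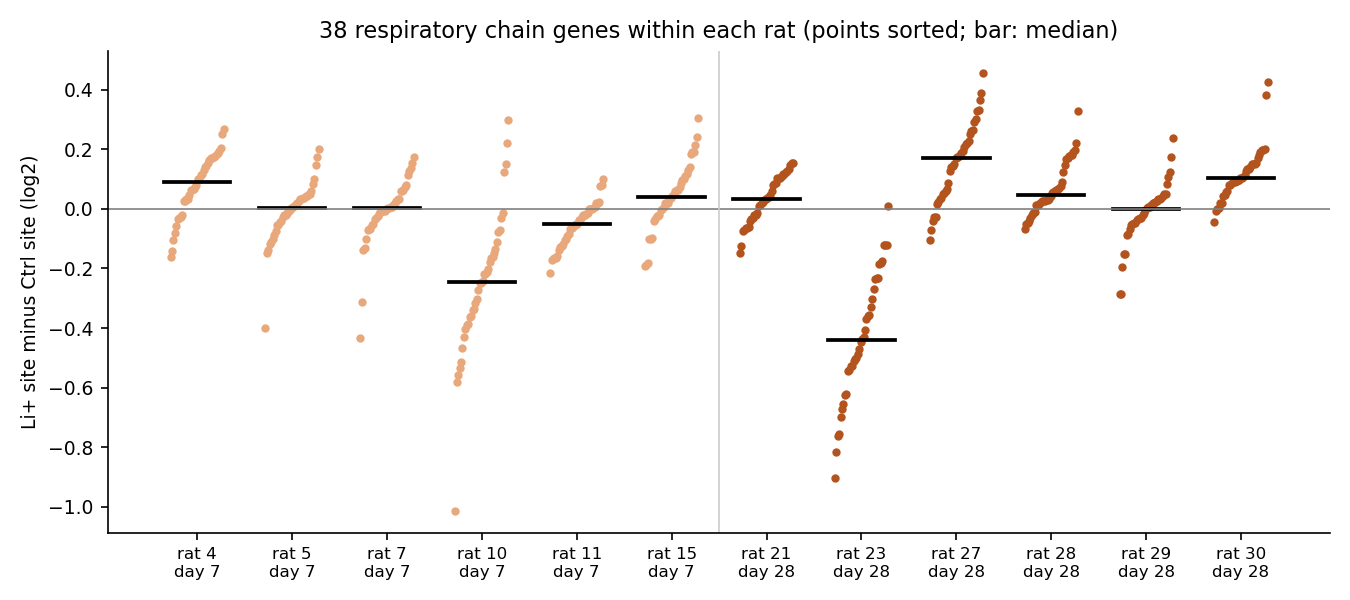
Li+ minus Ctrl difference in log2 signal within each rat for the 38 genes (points, sorted) with the median of each rat (bar), 6 rats of day 7 and 6 of day 28. Rat 10 (median -0.25) and rat 23 (median -0.44) lie below the other rats, and rat 27 (median 0.17) above them.

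The Li+ minus Ctrl differences of day 28 were then set against those of day 7, 6 rats each, to ask whether the course over time depended on the implant. Of the 38 genes, 24 had a larger Li+ minus Ctrl value at day 28 than at day 7, with a median of 0.01 against 0.00 over all probe sets. No gene reached an unadjusted p under 0.05, which 3.62% of all probe sets did, or the adjusted threshold, which 0.0% did. The smallest p was that of Ndufs6, with 0.16 (SE 0.09, adjusted p = 0.9995 by limma). Ndufa2 differed by 0.29 (SE 0.20), Ndufb10 by 0.14 (SE 0.10) and Uqcrb, a small subunit of complex III, by 0.17 (SE 0.13). Without rat 23 all 38 differences were positive with a median of 0.10 and 1 gene, Ndufs6, reached an unadjusted p, against 1.55% of all probe sets in that direction. Without rats 10 and 23, chosen after the values were seen, 31 were positive with a median of 0.06 and 0 reached an unadjusted p, against 3.47% of all probe sets. Without rat 10 alone the median was -0.02. The intervals of 37 genes lay within a 1.5-fold change, and that of Ndufa2 reached 0.73.

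The gene with the highest mean signal in complex I was Ndufb6, whose rat means did not overlap between the days. In the other complexes it was Sdhc, Uqcrc2 and Cox5a. Sdhc was 11.00 to 11.43 at Ctrl and 11.18 to 11.33 at Li+ sites of day 7, and 11.00 to 11.71 at Ctrl and 11.03 to 11.31 at Li+ sites of day 28. Uqcrc2 was 10.83 to 11.21, 11.13 to 11.23, 10.95 to 11.48 and 11.00 to 11.28 in the same order. Cox5a, a nuclear subunit that surrounds the catalytic core of complex IV, was 12.36 to 12.72, 12.53 to 12.61, 12.56 to 12.89 and 12.58 to 12.77. In each of these 3 genes the 4 groups overlapped, and the widest range was that of a Ctrl group.

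Genes that work beside the chain were also compared between days in the rat means, from lists drawn up for this purpose. At an unadjusted p, 7.87% of all probe sets were lower and 9.24% higher at day 28, and the counts that follow stand beside these shares. Among probe sets above the median signal the shares were 12.8% and 13.1%. Of 12 measured further complex I subunits, 1 was lower at an unadjusted p, and of 6 further subunits of complexes III and IV, 1. Of 13 ATP synthase subunits 1 was lower, Atp5mg, with -0.20 (SE 0.07, adjusted p = 0.130 by limma) and no overlap between the days. Of 66 mitochondrial ribosome proteins 5 were lower and 0 higher, led by Mrps6 with -0.27 (SE 0.06, adjusted p = 0.0566 by limma). Of 31 assembly factors 2 were higher, Sdhaf2, which helps attach the flavin to Sdha, with 0.18 (SE 0.05, adjusted p = 0.0825 by limma), and Coa5, an assembly factor of complex IV, with 0.13 (SE 0.05). Of 14 citric acid cycle enzymes 1 was higher, Suclg2, a subunit of succinyl-CoA ligase, with 0.13 (SE 0.05, adjusted p = 0.173 by limma). None of these passed the adjusted threshold.

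Among 16 measured regulators of mitochondrial biogenesis, the coactivator Ppargc1b was lower at day 28, with a difference of -0.40 (SE 0.11, adjusted p = 0.0834 by limma). Tfam, which packages and transcribes mitochondrial DNA, was higher by 0.16 (SE 0.06, adjusted p = 0.228 by limma) and Nrf1, which encodes the factor named above, by 0.14 (SE 0.06, adjusted p = 0.263). These 3 of 16 were the regulators at an unadjusted p, 1 lower (against 7.87% of all probe sets) and 2 higher (against 9.24%). Cox4i2, an isoform of Cox4i1 known from lung and regulated by oxygen, differed by -0.59 (SE 0.15, adjusted p = 0.0711 by limma). Its signals were 8.09 to 9.24 at Ctrl and 8.44 to 9.02 at Li+ sites of day 7, and 7.72 to 8.51 and 7.58 to 8.50 at those of day 28. Cox4i1 lay at 11.04 to 11.47, 11.07 to 11.29, 11.13 to 11.37 and 11.07 to 11.25 in the same order, so that its groups overlapped throughout.

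Markers of cell types moved between the days in the same rat means. At an unadjusted p, 7 of 11 osteoblast markers, 6 of 8 osteoclast markers and 6 of 14 macrophage markers were lower at day 28, against 7.87% of all probe sets, with medians of -0.35, -0.44 and -0.14. At that level 7 of 11 B cell and plasma cell markers and 5 of 9 erythroid markers were higher at day 28, against 9.24% of all probe sets, with medians of 0.39 and 0.30. Of 11 neutrophil granule markers 2 were higher, and of 14 macrophage markers 1. Of the 19 skeletal muscle markers 11 were higher, with a median of 1.05, and the 3 arrays with high muscle scores were all of day 28. The respiratory chain median of -0.03 stood beside these shifts, and their part in it was not tested.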

How the data were processed

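The authors normalized the arrays with robust multi-array averaging (RMA) in Affymetrix Expression Console 1.1.2 and deposited log2 signals per probe set, which leaves no read depth, so that the number of arrays limits the precision. Titles of the samples gave implant, day and rat, and every column was matched to 1 sample (0 unmatched). After 190 control probe sets were left out, 36495 were tested, with gene symbols from the annotation of the platform. Whether probes separate processed pseudogene copies, such as those of Cycs, was not tested, and scan dates were not given in the sources used here.

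Models were fitted with limma 3.58.1 in R 4.3.3 (lmFit, eBayes) over all probe sets, with Benjamini-Hochberg adjustment. Li+ and Ctrl sites were compared with the rat as a block, days without a block, and days also in the means of both sites of a rat. The pairing rests on the rat numbers in the titles and on the implantation of both kinds in each animal. Deviations from the group means correlated within a rat with a median r of 0.279 (0.0675 to 0.569, over 0.1 in 11 of 12 rats), against -0.0347 between rats. Tests of single genes were exact and two-sided, and 6 pairs allow no p below 0.0312. The fit was first tested on simulated data with known changes. Tables and figures were made in Python 3.11.15 with numpy 2.4.6, pandas 2.3.3 and matplotlib 3.10.9.

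The genes given with full statistics were the 4 with the smallest p in each comparison and the one with the highest mean signal in each complex. The list of genes, the other lists and the alternatives without rats 23, 27 and 29 were chosen with earlier results of these data known. Alternatives were the t-test of the methods, centring on array medians, a filter on low signal, the mean of a gene's probe sets, no block, and leaving out rats or arrays. The shares of all probe sets given beside fits without rats or arrays include probe sets of low signal. Those without rats 10 and 23, and the ribosome and proteasome lists, were chosen after the values were seen.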

Additional observations from a re-analysis of the deposited data

Results flagged for a closer look

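Scores and named genes were screened for arrays far from the other 5 of their group, by the gap to the nearest array as a share of the range of the group. The share was above Dixon's critical value for 6 samples in 20 of 84 groups, where chance gives about 1 in 20 for a single group. The groups share arrays and genes, so they are not separate trials and the count cannot be set against that rate.

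The Ctrl array of rat 10 (day 7) was the high one for the score of all 38 genes (0.740), for complex I (0.816) and complex IV (0.644), and for Cyc1 (0.819), Ndufs7 (0.775), Ndufv1 (0.764) and Uqcrfs1 (0.662). It was the low one for Uqcrc2 (0.826).

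The Ctrl array of rat 23 (day 28) was the high one for the score of all 38 genes (0.855), for complex I (0.821), complex II (0.842) and complex III with cytochrome c (0.830). It was also the high one for Cyc1 (0.757), Cycs (0.665), Ndufs7 (0.707), Ndufv1 (0.797), Sdhc (0.731), Uqcrc2 (0.758) and Uqcrq (0.836). In the same group Ndufa2 was low on the Ctrl array of rat 27 (0.630).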

How the results depend on the processing

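In 103 fits, 6 as reported and 97 alternatives, 0 of the 38 genes passed the adjusted threshold, and the smallest adjusted p of a named gene was 0.0577. Of 679 values under alternatives, 660 kept the direction of the named genes, moved a median by less than the spread between rats, or left a count within 1.5 times the reported one. The others all came from leaving out rats or arrays, and their cause was not tested. For Li+ against Ctrl the spread between rats was 0.12 at day 7 and 0.22 at day 28. It was larger in size than the reported medians of -0.03 and -0.01, so a median could change sign and still count among the 660. Leaving out each rat in turn, the genes at an unadjusted p under 0.05 numbered 0 to 1 for Li+ against Ctrl at day 7 (3.34% to 5.10% of all probe sets), 0 to 2 at day 28 (3.95% to 4.85%), 2 to 9 for the days at Ctrl sites (8.65% to 14.9%), 3 to 9 at Li+ sites (12.2% to 19.5%) and 0 to 1 for the difference between the courses (3.27% to 4.44%). Without rats 23, 27 and 29 they numbered 1 for Li+ against Ctrl at day 28 (5.14%), 5 at Ctrl sites (8.20%), 2 at Li+ sites (8.89%) and 3 for the difference (3.54%). They numbered 9 at Ctrl sites without the Ctrl arrays of rats 23 and 29 (12.9%), 9 at Li+ sites without the Li+ array of rat 27 (13.5%), 10 at Ctrl sites without the Ctrl arrays of rats 10 and 23 (18.5%), and 10 in the rat means without rats 10 and 23 (22.4%). At day 28 the Li+ minus Ctrl difference turned for Cyc1 (-0.15 to 0.063 leaving out each rat, 0.062 without rats 23, 27 and 29), for Ndufv1 (-0.10 to 0.033, and 0.015) and for Uqcrfs1 (0.022 without rats 23, 27 and 29). Leaving out each rat, the median over the genes ran from -0.05 to 0.02 at day 7, from -0.04 to 0.07 at day 28, from -0.09 to 0.01 between days at Ctrl sites and from -0.02 to 0.10 for the difference, so its sign turned in these 4, and it stayed below 0 between days at Li+ sites and in the rat means. Without the replicate block, the median over the genes was -0.03 at day 7, -0.01 at day 28 and 0.01 for the difference, with 0 genes at either threshold, so the pairing changed no call.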
